A study of Homo sapiens with 2 samples.

Results

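MDA-MB-453 cells in or near mitosis were compared with interphase cells of the same culture, gene by gene. MDA-MB-453 is an established human breast cancer line of luminal type that expresses the luminal keratins. Cells of this line with at least 10000 gene UMIs (unique molecular identifiers, each counting 1 captured transcript), at most 20% mitochondrial UMIs and at least 80% of their multiplexing-oligo UMIs from the line's own oligo were scored. Members were chosen by a score measured in the same cells, the sum of UMIs of CCNB1, CDC20, PLK1, CENPE, HMMR and ASPM per 10000 gene UMIs. The 508 cells in the highest 15% of the score are called mitotic and the 1694 cells in the lowest 50% interphase, out of 3387 cells of the line that passed these filters and 17605 barcodes in the series. The other 1185 cells lie between the groups.

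The study profiled 6 breast cancer cell lines by droplet single-cell RNA sequencing of transcript 3′ ends, each line stained with its own lipid-anchored oligo and mixed into 2 pools of 3 lines. MDA-MB-453 was pooled with MDA-MB-231 and BT-474, while HCC38, Hs578T and MDA-MB-436 formed the other pool. The labels give no treatment, and mitotic and interphase cells came from 1 culture and 1 capture. With a single culture there are no replicates, so no test was possible, no p-value is given, and every interval covers counting error only. The match of oligo to line is not part of the labels and rests on marker genes.

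During G2 and mitosis a cell accumulates cyclin B, the kinases PLK1 and Aurora A, and the kinesins and kinetochore proteins that build the spindle. The mRNAs of these proteins are made late in the cycle, largely from promoters bound by the DREAM and MuvB complexes at the CHR element and by NF-Y at CCAAT boxes. G1/S genes peak earlier, under E2F, and histone mRNAs are tied to DNA synthesis. Chromatin condenses and most transcription stops in mitosis itself, while existing mRNAs are largely kept. Transcript counts do not separate G2 from mitosis, and the term mitotic is used here for the cells the score picks.

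The score had no gap at either limit. The lowest mitotic cell scored 12.67 and the next cell below it 12.66. The highest interphase cell scored 3.010 and the next above it 3.013. Median scores were 27.2 in mitotic cells, 4.85 in cells between the groups and 1.5 in interphase cells, with a highest score of 61.5, and 201 cells scored 0.

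**Figure D1:**
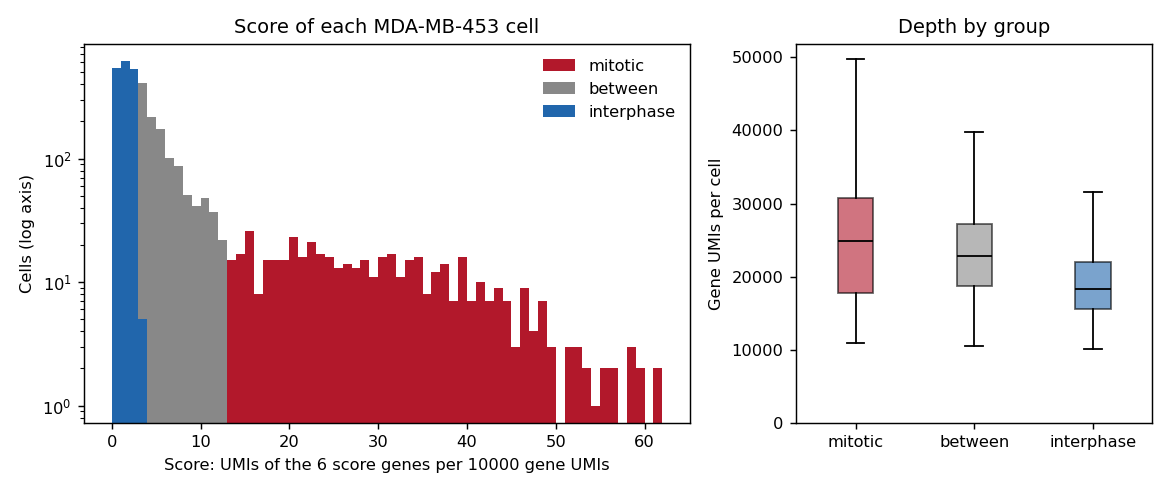
Left, number of MDA-MB-453 cells (log axis) by score, coloured by group. Right, gene UMIs per cell (line, median; box, quartiles; whiskers, the farthest cells within 1.5 times the box height). Mitotic cells spread from 12.7 to 61.5 on the score and had a median of 24927 UMIs, against 18375 in interphase cells.

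Mitotic cells gave more UMIs than interphase cells. The median was 24927 UMIs in mitotic cells (quartiles 17802 and 30760), against 18375 in interphase cells (quartiles 15581 and 21990), and 22786 in the cells between. The ratio of medians was 1.36, and with 1 culture it has no error between cultures. The median number of genes detected was 5306 in mitotic and 4548 in interphase cells. Mitochondrial UMIs made up a median of 9.12% in mitotic and 10.2% in interphase cells, and the oligo UMIs a median of 9625 in mitotic and 10334 in interphase cells, so the oligo count did not follow the gene count upward. All levels below are therefore CPM, the UMIs of a gene per 1000000 gene UMIs summed over the group (13049558 UMIs in mitotic and 33874361 UMIs in interphase cells). Counted as UMIs per cell instead, the median measured gene was 0.36 higher on the log2 scale in mitotic cells, so a gene with equal CPM in both groups had more copies captured per mitotic cell.

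The cells carried the markers of their line, 8 of whose 11 measured members lay below 0, with a median log2 ratio of -0.25 (0.11 in UMIs per cell) and none past 1.5-fold. FGFR4, a fibroblast growth factor receptor, reached 406 CPM in mitotic and 378 CPM in interphase cells, the highest ratio of the list, and KRT8, the lowest, 328 CPM in mitotic and 489 CPM in interphase cells. TFAP2B, a transcription factor, was at 427 CPM in mitotic and 425 CPM in interphase cells. Over all MDA-MB-453 cells the BT-474 markers PGR and ESR1 were at 2.26 and 0.412 CPM, against 171 and 23.3 CPM in BT-474 cells. MGP, also taken as a BT-474 marker, did not separate the lines so well. It was at 109 CPM in MDA-MB-453 and 320 CPM in BT-474 cells, and was highest in HCC38 cells at 1414 CPM. Summed over the lists, BT-474 markers came to 550 CPM in mitotic and 620 CPM in interphase cells (13 listed genes, 5 measured), and MDA-MB-231 markers to 637 CPM in mitotic and 652 CPM in interphase cells (13 listed, 2 measured). LGALS1, encoding galectin-1, made up most of the second sum at 583 CPM in mitotic and 590 CPM in interphase cells, and VIM stood at 23.9 CPM in mitotic and 25 CPM in interphase cells. Immune and stromal markers were at or near 0 in both groups. No barcode was shared with a line of the same capture, and 1 to 5 were shared with each line of the other. Every pair of lines within either pool shared none, so this count is no check for mixed cells. Cells holding markers of BT-474 or MDA-MB-231 at 25% or more of that line's own median numbered 10 of 508 mitotic and 20 of 1694 interphase cells. Above the 99th percentile of UMIs lay 12 mitotic and 11 interphase cells. Both shares were larger among mitotic cells, and the cause was not tested.

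Genes were called measured at 20 CPM or more in mitotic or interphase cells, which left 6213 genes. Fold changes are log2 ratios of (CPM + 1), mitotic over interphase, and a gene is counted as higher or lower when it is at least 1.5-fold apart. Of all measured genes, 375 (6.04%) were higher and 155 (2.49%) lower in mitotic cells. The median gene had a log2 ratio of 0.00.

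The 6 score genes describe the choice of cells and test nothing. ASPM, a spindle-pole protein, had 1186 CPM in mitotic and 64.2 CPM in interphase cells, and CCNB1, cyclin B1, 706 CPM in mitotic and 38.9 CPM in interphase cells. PLK1, the polo-like kinase of mitotic entry, was at 311 CPM in mitotic and 9.33 CPM in interphase cells. HMMR, a spindle-associated protein, was at 230 CPM in mitotic and 7.0 CPM in interphase cells. CENPE, a kinetochore kinesin, and CDC20, the activator of the anaphase-promoting complex, completed the set, with log2 ratios of 3.68 and 3.64. Ratios of the 6 ranged up to 4.91 for PLK1, with a median of 4.17.

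Genes of the spindle and kinetochore outside the score were also high in the mitotic cells, and some more steeply than the score genes. All 50 measured of 51 listed were higher, with a median log2 ratio of 2.53 beside 0.00 over all genes. The list was drawn up from the same class as the score genes, so its direction follows from the choice of cells. KIF14, a kinesin of the central spindle and cytokinesis, had 166 CPM in mitotic and 3.96 CPM in interphase cells, a ratio of 41.8 (95% interval 35.1 to 50.2). KIF20A, another cytokinetic kinesin, had 94.7 CPM in mitotic and 3.48 CPM in interphase cells. CENPF was the most abundant of those named here, at 1964 CPM in mitotic and 178 CPM in interphase cells. DLGAP5 (log2 ratio 4.05), the centromeric histone CENPA (3.92), the kinase NEK2 (3.72) and the Aurora kinase AURKA (3.51) followed. FAM83D (3.41), the midbody protein CEP55 (3.34) and the checkpoint kinase BUB1 (3.15) came next. At the other end BUB3, a checkpoint protein with roles outside mitosis, stood at 325 CPM in mitotic and 201 CPM in interphase cells (0.69), and SKA3 at 0.91.

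Genes of mitotic entry and exit were mostly higher too. Of 39 listed, 35 were measured and 30 were higher, with a median log2 ratio of 2.20. UBE2C, the ubiquitin-conjugating enzyme of the anaphase-promoting complex, had 585 CPM in mitotic and 52.4 CPM in interphase cells, a ratio of 11.2 (10.6 to 11.8). TOP2A, which untangles chromosomes, had 554 CPM in mitotic and 60.0 CPM in interphase cells, and MKI67, the coat protein of mitotic chromosomes, 823 CPM in mitotic and 107 CPM in interphase cells. PIMREG (3.37), the phosphatase CDC25C (3.28), cyclin A2 (CCNA2, 3.27), CDCA3 (3.13), cyclin B2 (CCNB2, 2.98), HMGB2 (2.78) and TROAP (2.57) were the other leading members. LIN9 and LIN54, subunits of the MuvB core that regulates these genes, were nearly level, at 37.8 CPM in mitotic and 34.0 CPM in interphase cells for LIN9 and 23.1 CPM in mitotic and 21.2 CPM in interphase cells for LIN54.

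The promoters of these genes can be read beside their levels. In RefSeq windows of 300 bases around the gene start (GRCh38.p14), the CHR element (searched as TTTGAA or TTCGAA on both strands) was found in 53 of 74 genes of the score and the 2 mitotic lists that had a window (71.6%), against 11.7% of the 5075 measured genes with one and 16.6% of all 27305 windows. A CCAAT box (CCAAT, both strands) was found in 68.9% of the same 74, against 39.1% of measured genes. Both elements stood together in 54.1% of the 74 and 5.71% of measured genes. The 150 bases upstream of the RefSeq start are printed for 3 score genes and for PIF1, the gene with the highest ratio outside the cycle lists, because they show both elements within a short stretch. Of the score genes not printed, the window of ASPM held both elements, that of CCNB1 only CCAAT boxes and that of CENPE neither. Capitals mark CHR and CCAAT matches on either strand, so a match on the other strand reads TTCAAA or ATTGG, and in HMMR a pair of opposite CCAAT matches overlap. A match is a description of the letters and not a site. The RefSeq start is not always the outermost start in the GENCODE annotation that gives the gene spans, and the PLK1 and HMMR stretches lie inside the GENCODE span of their gene. For CDC20, the bases just after the RefSeq start were not found in a GENCODE transcript of the gene, so its start is less certain.
PLK1, chr16:23678739-23678888, plus strand: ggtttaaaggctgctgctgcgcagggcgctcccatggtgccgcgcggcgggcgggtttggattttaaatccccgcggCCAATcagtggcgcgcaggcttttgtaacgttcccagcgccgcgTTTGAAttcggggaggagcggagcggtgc
CDC20, chr1:43358831-43358980, plus strand: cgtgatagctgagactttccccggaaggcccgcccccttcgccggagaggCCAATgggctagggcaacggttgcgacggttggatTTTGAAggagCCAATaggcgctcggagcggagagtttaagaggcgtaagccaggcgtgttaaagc
HMMR, chr5:163460482-163460631, plus strand: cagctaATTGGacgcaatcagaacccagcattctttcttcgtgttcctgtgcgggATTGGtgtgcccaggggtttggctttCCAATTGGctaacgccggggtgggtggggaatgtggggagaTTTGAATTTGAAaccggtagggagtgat
PIF1, chr15:64825648-64825797, minus strand: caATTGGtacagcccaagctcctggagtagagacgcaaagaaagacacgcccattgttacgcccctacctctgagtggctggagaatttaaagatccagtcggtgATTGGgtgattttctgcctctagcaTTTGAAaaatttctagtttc

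G1/S genes lay mostly below interphase, and both direction and size depended on which interphase cells were taken. Of 64 listed, 58 were measured, with 4 higher and 24 lower and a median log2 ratio of -0.40 (in UMIs per cell, -0.05). DTL, which marks the licensing factor CDT1 for destruction, was at 25.9 CPM in mitotic and 117 CPM in interphase cells (log2 ratio -2.13). MCM5, a subunit of the replicative helicase, was at 23.2 CPM in mitotic and 87.2 CPM in interphase cells (-1.86). RAD51AP1 and FANCI, both of DNA repair, were higher, at 82.9 CPM in mitotic and 37.8 CPM in interphase cells for RAD51AP1 and 146 CPM in mitotic and 71.0 CPM in interphase cells for FANCI. The interphase group is itself mixed: when it was split into 847 cells at or below and 847 above its median of summed G1/S levels, the list's median log2 ratio was 0.66 against the cells below and -0.86 against those above. DTL then stood at -0.01 against the cells of low G1/S level and -2.86 against those of high level. That split used the G1/S genes, so these values describe the mixture within the interphase cells and are no further finding.

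Histone transcripts are mostly without a poly(A) tail when DNA is replicated, and this kit captures tails. Of 17 core histone genes named in the files, 9 were measured and 2 were higher, HIST1H4C and HIST1H3B, whose log2 ratios of 0.90 and 0.68 turned to -0.37 and -0.15 among cells with at least 20000 UMIs. HIST1H4C also turned to -0.56 with the highest 5% of the score as mitotic. HIST1H4C had 419 CPM in mitotic, 935 CPM in the cells between and 225 CPM in interphase cells. HIST1H1C was at 101 CPM in mitotic, 215 CPM between and 143 CPM in interphase cells, so both peaked in the cells between the groups. Replication-independent histones had all 8 measured members above 0 and 3 past 1.5-fold, with a median of 0.56. H1FX, a linker histone, had 580 CPM in mitotic and 212 CPM in interphase cells, and H2AFX, the variant phosphorylated at DNA breaks, 111 CPM in mitotic and 41.7 CPM in interphase cells. The log2 ratio of H2AFX was 2.19 against interphase cells of low and 0.95 against those of high G1/S level, while that of H1FX was 1.38 and 1.52.

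**Figure D2:**
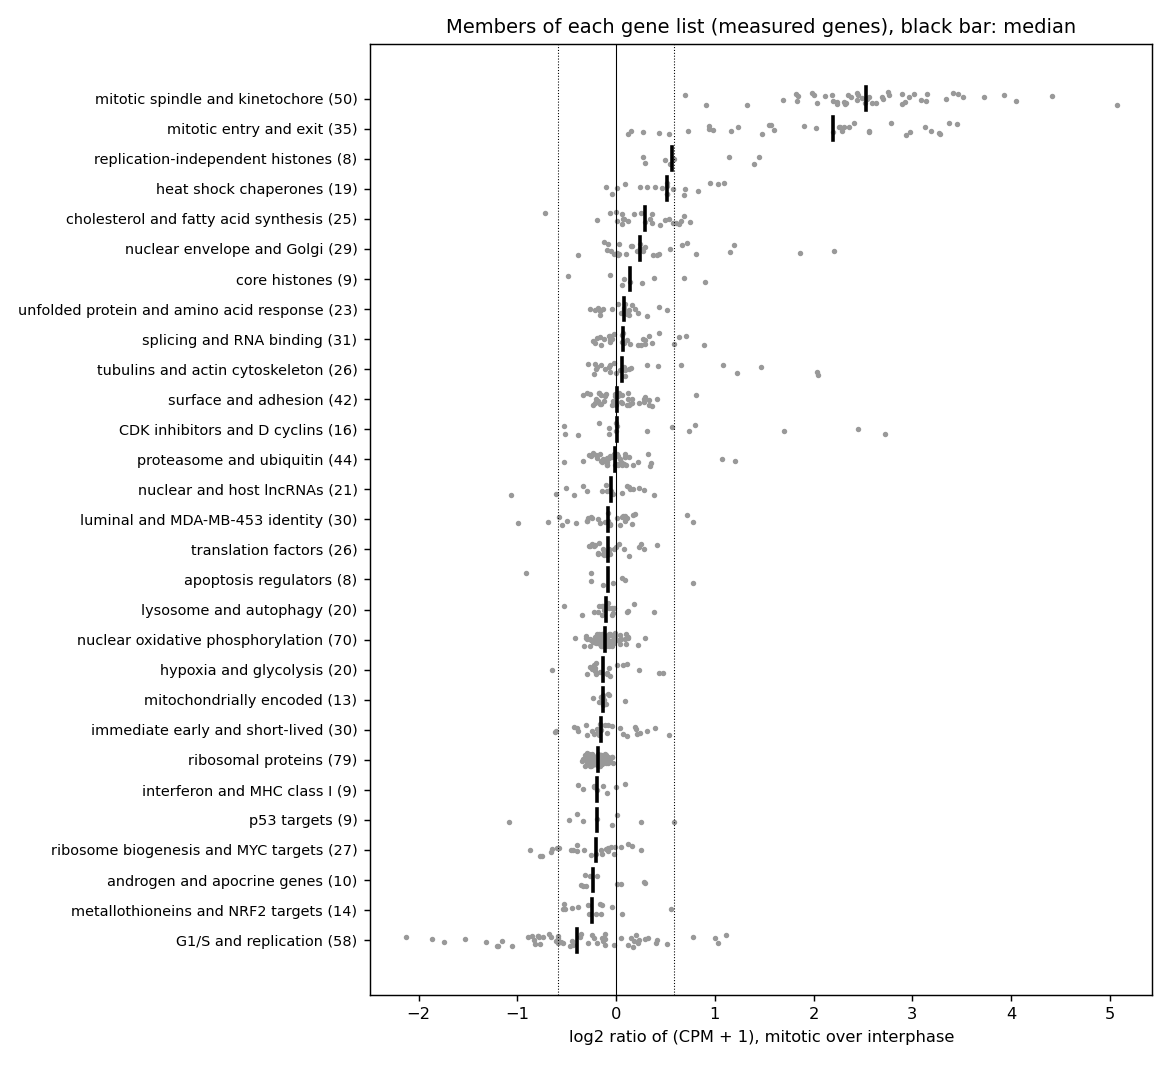
Log2 ratios of (CPM + 1), mitotic over interphase, of the measured members of each gene list (grey points; number measured in brackets) with the list's median (black bar); dotted lines mark 1.5-fold. The spindle and the entry and exit lists lie at medians of 2.53 and 2.20, the replication-independent histones at 0.56 and the heat shock chaperones at 0.52, most other lists within 0.3 of 0, and the G1/S list at -0.40.

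Non-cycle genes are those outside the score, the 2 mitotic lists, the G1/S list and the core histones. Of 6055 measured, 283 (4.67%) were higher and 131 (2.16%) lower in mitotic cells, and the median log2 ratio was 0.00. These 2 shares are the background for the counts of higher and lower members in the lists below. Most of the 15 with the highest ratios are themselves known from cell division, and CDKN3 and CDKN2D stood on the list of CDK inhibitors. PIF1, a DNA helicase (chromosome 15, 64815632 to 64825668, minus strand, GRCh38), had 69.0 CPM in mitotic, 4.97 CPM in the cells between and 0.768 CPM in interphase cells. GAS2L3, which links actin and microtubules at the midbody, was at 60.1 CPM in mitotic and 3.93 CPM in interphase cells, and DEPDC1B at 47.4 CPM in mitotic and 4.10 CPM in interphase cells. PRR11 (log2 ratio 3.13), TNFAIP8L1 (3.10), the kinetochore protein KNSTRN (3.00) and the phosphatase CDKN3 (2.72) followed. The centriolar CNTRL (2.63), UBALD2 (2.58), the citron kinase CIT (2.54), ARHGEF39 (2.49), IQGAP3 (2.45), the CDK4 and CDK6 inhibitor CDKN2D (2.45), MXD3 (2.40) and the spindle orientation protein GPSM2 (2.39) completed the 15. MXD3 shares exons with RAB24 on the same strand, so its reads are uncertain, as are those of CENPA, ELF3, MCL1 and BTG1, which overlap other genes on their strand.

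A wider list of 176 genes with known cycle roles, drawn up after these values were seen, removed 85 of the 283 higher genes and 5 of the 131 lower ones. Outside it, of 5909 genes, 198 (3.35%) were higher and 126 (2.13%) lower. TNFAIP8L1, a member of the TNFAIP8 family (chromosome 19), had 25.3 CPM in mitotic, 2.29 CPM between and 2.07 CPM in interphase cells. UBALD2, a small protein with a ubiquitin-associated-like domain (chromosome 17, 76265202 to 76271299, plus strand), had 251 CPM in mitotic, 60.8 CPM between and 41.0 CPM in interphase cells, a ratio of 6.11 (5.74 to 6.51). Per cell, UBALD2 had quartiles of 1.40 and 3.37 UMIs per 10000 in mitotic cells, and of 0.00 and 0.637 in interphase cells, so the middle ranges of the groups did not overlap. UBALD2 was picked for its high ratio, so this gap is part of the choice.

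SMTN, a smoothelin that binds actin, had 68.1 CPM in mitotic and 13.3 CPM in interphase cells, with a same-strand overlap with AC005005.4. SUN2, which spans the inner nuclear membrane and links the nucleus to the cytoskeleton, had 38.7 CPM in mitotic and 7.62 CPM in interphase cells, and shares exons with DNAL4 on its strand. STK17B, a kinase of the DAP kinase family, stood at 28.3 CPM in mitotic and 7.17 CPM in interphase cells. RNF26, a ubiquitin ligase of the endoplasmic reticulum, stood at 40.7 CPM in mitotic and 12.3 CPM in interphase cells. The bromodomain protein BRD8 (107 CPM in mitotic and 41.7 CPM in interphase cells) and the centrosomal CDK5RAP2 (114 CPM in mitotic and 45.6 CPM in interphase cells) were the most abundant after UBALD2. KIF20A, of the spindle list, overlaps BRD8 on the opposite strand. AC091057.6 (1.61), annotated as protein-coding, ZMYM1 (1.33), SRGAP2B (1.32), CEP57L1 (1.30), EXPH5 (1.28) and the non-coding HELLPAR (1.77) and AL359513.1 (1.54) made up the rest of the 15. SRGAP2B is nearly identical to its paralogs, HELLPAR overlaps LINC02456, and AC091057.6 overlaps another entry of the same name on its strand, so all of these are uncertain.

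**Figure D3:**
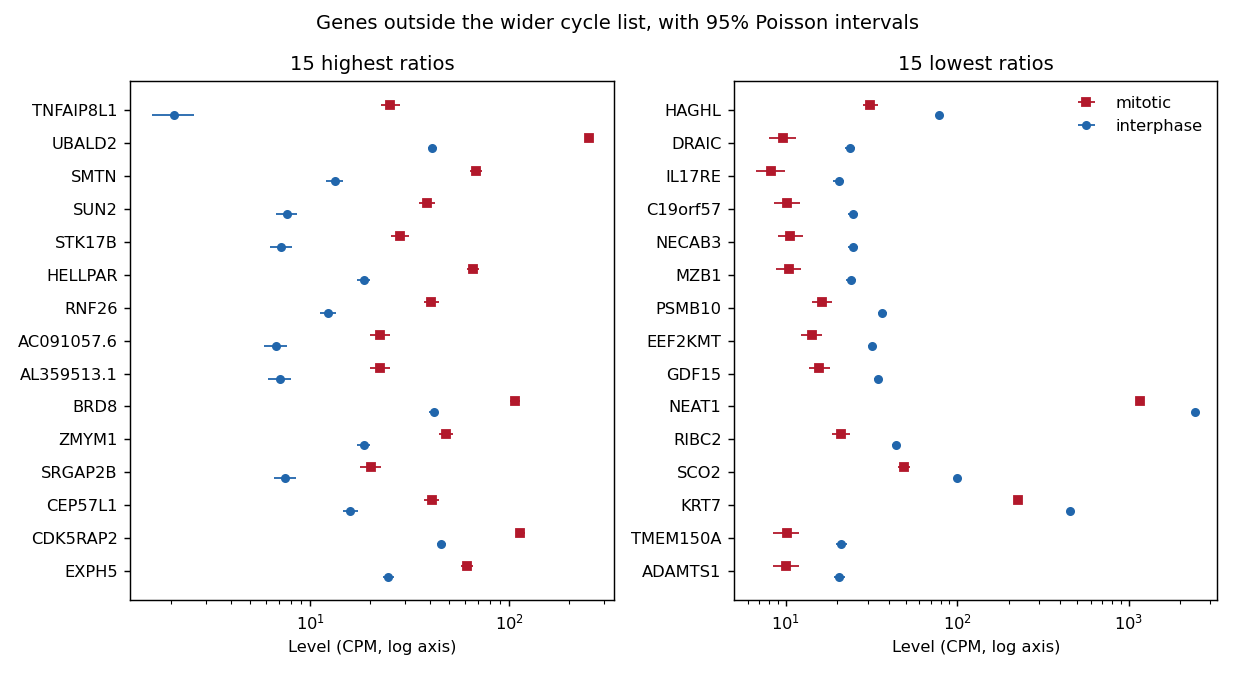
Levels (CPM, log axis) in mitotic cells (red squares) and interphase cells (blue circles) of the 15 highest and 15 lowest ratios outside the wider cycle list, with 95% Poisson intervals that cover counting error only. The genes were picked for their ratios, so the gap between the groups is part of the choice, and the log2 ratios range from 3.10 for TNFAIP8L1 to -1.30 for HAGHL.

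The CHR element was found in 48 of the 157 windows of these 198 higher genes (30.6%) and in 7 of 88 windows of the 126 lower genes (7.95%), beside 11.7% of measured genes. A CCAAT box was found in 56.1% of the windows of the higher and 34.1% of those of the lower genes. The stretch upstream of the RefSeq start is printed for UBALD2, RNF26 and SUN2, which held both elements, with capitals as above. The windows of TNFAIP8L1, BRD8, ZMYM1 and CEP57L1, also among the higher genes, held neither. The SUN2 stretch and nearly all of the UBALD2 stretch lie inside the GENCODE span of the gene, since GENCODE also lists starts farther upstream. In UBALD2 the CHR match is TTCGAA, which reads the same on both strands.
UBALD2, chr17:76265198-76265347, plus strand: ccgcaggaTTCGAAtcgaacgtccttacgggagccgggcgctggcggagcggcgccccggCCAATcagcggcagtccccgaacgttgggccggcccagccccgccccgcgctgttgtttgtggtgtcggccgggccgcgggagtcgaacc
RNF26, chr11:119334377-119334526, plus strand: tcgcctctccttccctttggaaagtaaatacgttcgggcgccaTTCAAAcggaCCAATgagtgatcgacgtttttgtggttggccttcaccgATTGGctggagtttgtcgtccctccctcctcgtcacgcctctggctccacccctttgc
SUN2, chr22:38755999-38756148, minus strand: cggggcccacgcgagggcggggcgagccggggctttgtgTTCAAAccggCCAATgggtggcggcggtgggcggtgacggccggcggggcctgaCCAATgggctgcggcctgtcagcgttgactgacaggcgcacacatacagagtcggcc

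In the cytoskeleton list the higher genes were mostly tubulins. Of 33 listed, 26 were measured and 6 were higher, none was lower, and the median was 0.06. TUBA1C, TUBB4B and TUBA1B are on the wider cycle list, so the 6 are not all outside known cycle genes. TUBA1C, an alpha-tubulin, had 581 CPM in mitotic and 140 CPM in interphase cells. TUBB4B, a beta-tubulin, had 1728 CPM in mitotic and 421 CPM in interphase cells, a ratio of 4.10 (4.02 to 4.19). Its per-cell quartiles were 12.8 and 20.7 UMIs per 10000 in mitotic cells and 2.1 and 5.53 in interphase cells. TUBA1B (1.47), the microtubule destabiliser STMN1 (1.22), TUBB (1.08) and the actin linker RDX (0.65) were the other 4. At the low end TMSB10, an actin-binding thymosin, was at 1091 CPM in mitotic and 1325 CPM in interphase cells (-0.28) and the actin linker EZR at -0.22. Tubulin genes share long coding stretches, so reads may be split unevenly among them.

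Nuclear envelope genes were higher in part. Of 31 listed genes of the envelope, nuclear pore, Ran cycle and Golgi, 29 were measured, 7 were higher and none lower, with a median of 0.24. LBR, the lamin B receptor of the inner membrane, had 351 CPM in mitotic and 96.2 CPM in interphase cells, and is on the wider cycle list. RANGAP1, the activator of Ran GTPase, was at 187 CPM in mitotic and 80.9 CPM in interphase cells, and the lamin LMNB2 at 73.0 CPM in mitotic and 32.3 CPM in interphase cells. The pore proteins NUP98 (0.81) and NUP37 (0.72) and the export receptor XPO1 (0.66) also passed 1.5-fold, whereas the pore protein NUP153 was at 29 CPM in mitotic and 38.3 CPM in interphase cells (-0.39). GOLGA4, a Golgi golgin, was nearly level, at 186 CPM in mitotic and 202 CPM in interphase cells.

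Proteolysis genes were mostly level. In the proteasome and ubiquitin list, 44 genes were measured and 2 were higher, near the 4.67% of all non-cycle genes. The median of the list was -0.02 (0.34 in UMIs per cell). CDC27, a subunit of the anaphase-promoting complex, had 103 CPM in mitotic and 44.1 CPM in interphase cells, and the deubiquitinase USP13 had 52.3 CPM in mitotic and 24.3 CPM in interphase cells. The proteasome subunit PSMA5 was at 101 CPM in mitotic and 128 CPM in interphase cells.

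Heat shock chaperones refold proteins, and the inducible ones are switched on by HSF1 at heat shock elements. Of 22 listed, 19 were measured, 6 were higher and none lower, 17 lay above 0, and the median was 0.52 (0.48 against interphase cells of high G1/S level). HSPA1A and HSPA1B encode nearly identical inducible HSP70 proteins, so their split is uncertain. HSPA1A (chromosome 6, 31815464 to 31817946, plus strand) had 165 CPM in mitotic and 80.2 CPM in interphase cells, and HSPA1B had 29.7 CPM in mitotic and 13.4 CPM in interphase cells. HSPH1, the HSP110 exchange factor, had 424 CPM in mitotic and 218 CPM in interphase cells, and DNAJB1, an HSP40, 119 CPM in mitotic and 66.5 CPM in interphase cells. CHORDC1 (0.69), an HSP90 partner, and HSPA4L (0.69) also passed 1.5-fold. HSPB1, HSP27, was level at 221 CPM in mitotic and 227 CPM in interphase cells, and HSPA4 stood at -0.10.

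A heat shock element, searched as GAANNTTC on both strands, was found in 8 of the 18 chaperone windows (44.4%), against 4.43% of measured genes and 6.87% of all windows. That share is for the whole list and not for its higher genes, and the window of HSPB1, which was level, held a match too. The stretches of CHORDC1 and HSPA1B show it in capitals at its fixed letters, together with a CCAAT box on the other strand in HSPA1B.
CHORDC1, chr11:90223050-90223199, minus strand: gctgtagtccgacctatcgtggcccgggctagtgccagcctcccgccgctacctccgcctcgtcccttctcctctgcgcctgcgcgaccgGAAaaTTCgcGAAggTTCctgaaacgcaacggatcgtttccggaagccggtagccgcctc
HSPA1B, chr6:31827588-31827737, plus strand: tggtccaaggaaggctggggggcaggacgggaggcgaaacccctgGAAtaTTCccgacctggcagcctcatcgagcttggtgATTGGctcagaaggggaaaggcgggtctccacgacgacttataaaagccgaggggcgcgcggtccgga

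Sterol genes were mostly above 0. Of 31 listed genes of cholesterol and fatty acid synthesis, 25 were measured, 5 were higher, 1 was lower and 22 lay above 0, with a median of 0.29. MVK, mevalonate kinase, had 24.0 CPM in mitotic and 13.9 CPM in interphase cells. SQLE, the squalene epoxidase, had 224 CPM in mitotic and 139 CPM in interphase cells, a ratio of 1.61 (1.54 to 1.69). INSIG1, which holds the sterol sensor in the endoplasmic reticulum, stood at 0.64. MVK, SQLE and INSIG1 are targets of SREBP2. TM7SF2, a sterol reductase, was lower at 48.7 CPM in mitotic and 80.9 CPM in interphase cells, and overlaps VPS51 on its strand. ACACA of fatty acid synthesis was at -0.20.

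In the list of CDK inhibitors and D cyclins, 16 of 22 were measured and 5 were higher, with a median of 0.00. CDKN3 had 557 CPM in mitotic and 83.5 CPM in interphase cells, and CDKN2D had 87.7 CPM in mitotic and 15.3 CPM in interphase cells. CDKN2C (1.7), a close relative of CDKN2D, CDKN1B (0.79), which encodes p27, and CCNG1 (0.74) were the others. CDKN3, CDKN2D and CDKN2C are on the wider cycle list. RBL1 (-0.52) and E2F3 (-0.53) had the lowest ratios. Among 9 measured p53 targets MDM2 was highest at 61.5 CPM in mitotic and 40.7 CPM in interphase cells (0.58), and GDF15 was the 1 lower gene, at 15.7 CPM in mitotic and 34.5 CPM in interphase cells. GDF15 was sparse, and its upper quartile was 0.00 UMIs per 10000 in both groups.

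RNA-processing genes had 3 higher members of 31 measured and a median of 0.07, beside 4.67% of non-cycle genes higher, so the count says little about the list. CLK1, a kinase of splicing factors, had 41.9 CPM in mitotic and 22.1 CPM in interphase cells, and the helicase DDX17 had 348 CPM in mitotic and 212 CPM in interphase cells. HNRNPH1 (0.64) was the third. SRRM2 (-0.21) and RBM25 (-0.24) were lowest. Apoptosis regulators gave 1 gene each way among 8 measured, the apoptosome scaffold APAF1 at 23.7 CPM in mitotic and 13.4 CPM in interphase cells and the BH3 protein BID at 22.8 CPM in mitotic and 43.6 CPM in interphase cells.

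NEAT1, the long non-coding RNA that scaffolds paraspeckles in the nucleus, was the most abundant gene among the 15 lowest. NEAT1 (chromosome 11, 65422774 to 65445540, plus strand) had 1168 CPM in mitotic, 2222 CPM in the cells between and 2439 CPM in interphase cells, a ratio of 0.479 (0.471 to 0.487). In UMIs per cell the NEAT1 ratio was 0.615. Its quartiles were 4.98 and 14.1 UMIs per 10000 in mitotic cells and 10.8 and 26.7 in interphase cells, so the middle ranges overlapped. MALAT1, encoded close by on the same chromosome and located in nuclear speckles, was at 17838 CPM in mitotic and 13643 CPM in interphase cells (log2 ratio 0.39). The lncRNA list as a whole, NEAT1 and MALAT1 included, was nearer to level. Of 21 measured, 2 were lower and none higher, with a median of -0.06 (0.30 in UMIs per cell). The second lower one was SNHG15, at 38.9 CPM in mitotic and 59.9 CPM in interphase cells.

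KRT7, a keratin of simple epithelia and a luminal identity gene, was at 227 CPM in mitotic, 303 CPM in the cells between and 454 CPM in interphase cells, a ratio of 0.501 (0.482 to 0.521) and of 0.644 in UMIs per cell. Per-cell quartiles of KRT7 were 1.19 and 3.00 UMIs per 10000 in mitotic cells and 2.70 and 5.81 in interphase cells. An antisense transcript, KRT7-AS, overlaps KRT7 on the opposite strand. KRT8 had a log2 ratio of -0.57. The epithelial factor ELF3 was at 47.3 CPM in mitotic and 77.0 CPM in interphase cells (-0.69). Other luminal genes were higher: the splicing regulator ESRP1 had 157 CPM in mitotic and 91.7 CPM in interphase cells (0.77), and the factor EHF 155 CPM in mitotic and 93.6 CPM in interphase cells (0.72). In all, 2 luminal genes were higher and 2 lower of 30 measured, with a median of -0.08 (0.28 in UMIs per cell), beside 4.67% higher and 2.16% lower of all non-cycle genes, and the higher count is near that share. Androgen and apocrine genes had none past 1.5-fold among 10 measured and ran from -0.36 for MUCL1 to 0.29 for CRAT, with ALCAM at -0.34.

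The other lowest genes outside the cycle lists were mostly of low level. HAGHL (chromosome 16) had 31.1 CPM in mitotic and 78.3 CPM in interphase cells, the lowest ratio, 0.398 (0.357 to 0.441). SCO2, a copper chaperone of cytochrome oxidase that shares exons with TYMP, had 48.9 CPM in mitotic and 100 CPM in interphase cells. PSMB10, a subunit of the immunoproteasome, had 16.3 CPM in mitotic and 36.6 CPM in interphase cells. The long non-coding RNA DRAIC (log2 ratio -1.22), IL17RE (-1.22), NECAB3 (-1.14), MZB1 (-1.13) and EEF2KMT (-1.11) were at low levels, from 8.2 CPM for IL17RE to 14.2 CPM for EEF2KMT in mitotic cells and from 20.4 CPM for IL17RE to 31.9 CPM for EEF2KMT in interphase cells. The mismatch repair gene MSH6 (-1.23), USP37 (-1.22), C19orf57 (-1.20), FAM111B (-1.20) and RIBC2 (-1.03) differed with the G1/S level of the interphase cells: against interphase cells of low G1/S level FAM111B stood at 0.93 and RIBC2 at 0.69, and against those of high level at -1.93 and -1.71. MSH6 stood at -0.53 against cells of low and -1.64 against cells of high G1/S level. Outside the wider list TMEM150A (-0.99) and ADAMTS1 (-0.97) also came among the 15 lowest.

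Early-response and growth genes were lower in part, where 2.16% of all non-cycle genes were lower. JUN, an AP-1 subunit, had 154 CPM in mitotic and 238 CPM in interphase cells (log2 ratio -0.62), and ZFP36L2, which speeds mRNA decay, 112 CPM in mitotic and 171 CPM in interphase cells (-0.61). Of 30 measured early-response and short-lived genes these 2 were lower and none higher, with a median of -0.15 (0.23 in UMIs per cell), and MCL1 and BTG1, both with short-lived mRNA, stood at 0.53 and 0.39. In the list of ribosome biogenesis and MYC targets 6 of 27 measured genes were lower and none higher, with a median of -0.20, which in UMIs per cell turned to 0.15. MYC had 46.0 CPM in mitotic and 85 CPM in interphase cells (-0.87), the spermidine synthase SRM 179 CPM in mitotic and 305 CPM in interphase cells (-0.77), and the nucleolar GNL3 74.0 CPM in mitotic and 125 CPM in interphase cells (-0.75). RRS1 (-0.66), NOLC1 (-0.65) and BOP1 (-0.60), all of ribosome assembly, were the other 3, while the RNA polymerase I factors UBTF and RRN3 stood at 0.25 and 0.17.

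The bulk housekeeping transcripts shifted little. All 79 ribosomal protein genes lay below 0 and none passed 1.5-fold, from RPL23 at -0.03 and RPS20 at -0.04 to RPL31 at -0.34 and RPL27 at -0.35, with a median of -0.19 in CPM and of 0.17 in UMIs per cell. Summed, they took 154349 CPM in mitotic and 176145 CPM in interphase cells. Nuclear oxidative phosphorylation genes had a median of -0.11 in CPM and 0.25 in UMIs per cell, with none of 70 past 1.5-fold. The 13 mitochondrially encoded genes had a median of -0.13 in CPM and 0.23 in UMIs per cell, from MT-ND6 at 0.09 to MT-ATP6 at -0.24. Translation factors (median -0.08, or 0.28 in UMIs per cell, 26 measured) ran from EIF4E at 0.42 to EIF4G1 at -0.28. For these lists the direction therefore depended on whether a level was taken per UMI or per cell.

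Stress, metabolic and surface lists had few members past 1.5-fold, beside 4.67% higher and 2.16% lower of all non-cycle genes. In the unfolded protein and amino acid list none of 23 passed, with ATF4 highest at 179 CPM in mitotic and 125 CPM in interphase cells (0.51), MTHFD2 at 0.43 and CRELD2 lowest at -0.26. In the hypoxia and glycolysis list 1 of 20 was lower, EGLN3, a prolyl hydroxylase of HIF, at 433 CPM in mitotic and 678 CPM in interphase cells (-0.65), whereas KDM3A (0.47) was highest and the carbonic anhydrase CA12 was at 273 CPM in mitotic and 201 CPM in interphase cells (0.44). Of 14 measured metallothionein and NRF2 genes none passed, with MT2A at 803 CPM in mitotic and 547 CPM in interphase cells (0.55) and SQSTM1 at -0.53. Interferon and MHC class I genes had none of 9 past 1.5-fold with a median of -0.19 (0.22 in UMIs per cell), and IRF7 was lowest at -0.39, with ISG15 at -0.33. Lysosome genes had none of 20 past 1.5-fold, with CTSB at 0.19 and SQSTM1, which is on both lists, again at -0.53. Surface and adhesion genes, which the study's title is about, had 1 of 42 higher, the adhesion molecule NECTIN4 at 37.6 CPM in mitotic and 21.0 CPM in interphase cells (0.81), with a median of 0.01, and the line's marker IL1R1 was lowest at 205 CPM in mitotic and 260 CPM in interphase cells (-0.34).

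**Figure D4:**
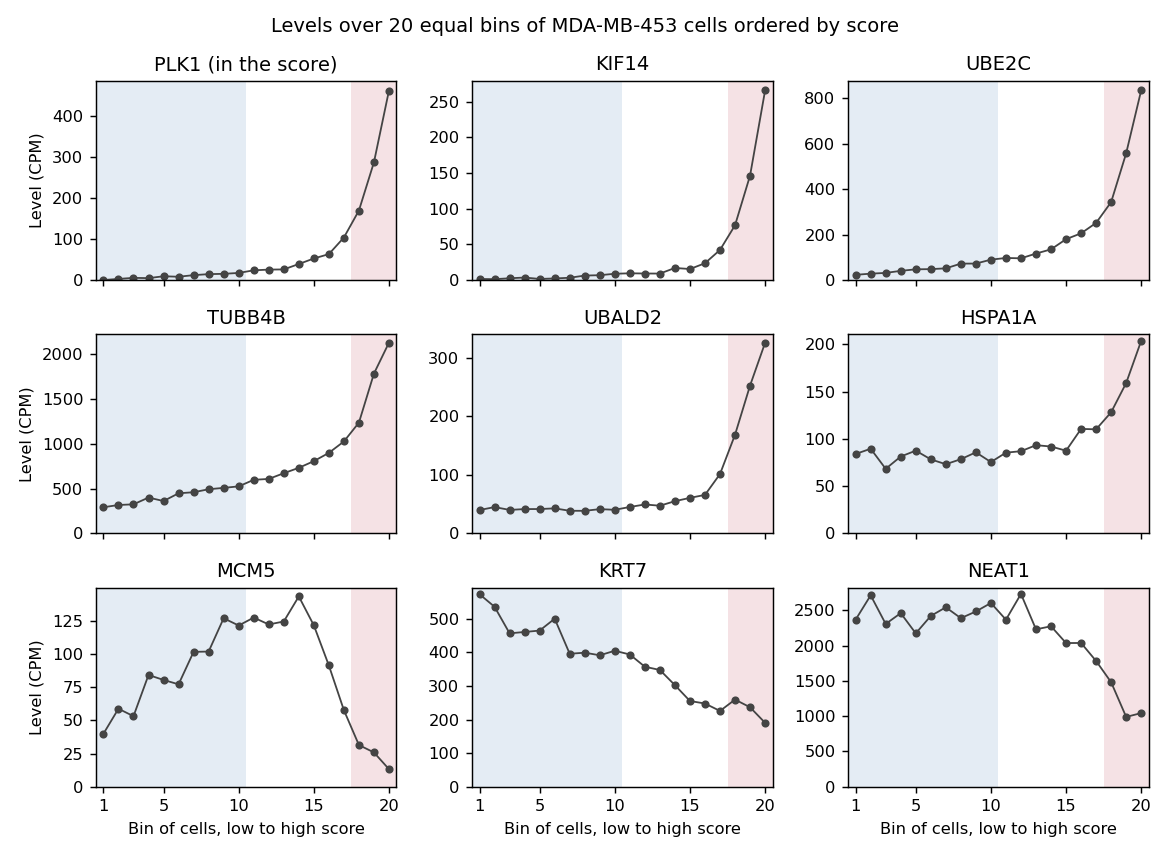
Level (CPM) in 20 equal bins of 169 or 170 MDA-MB-453 cells from low to high score (red shading, bins 18 to 20, which span the mitotic cells; blue shading, bins 1 to 10, which span the interphase cells). PLK1 is part of the score; UBALD2, HSPA1A and TUBB4B climb toward the last bin, MCM5 peaks in bin 14, KRT7 is lower toward high scores and NEAT1 drops in the last bins.

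The course over the score differed between genes that shared a direction. UBALD2 stayed between 38.6 and 65.8 CPM in bins 1 to 16 and reached 325 CPM in bin 20, while TUBB4B climbed throughout, from 292 CPM in bin 1 to 526 CPM in bin 10 and 2132 CPM in bin 20. HSPA1A stayed between 68.3 and 111 CPM in bins 1 to 17 and reached 204 CPM in bin 20. MCM5 reached 143 CPM in bin 14 and was at 13.3 CPM in bin 20. KRT7 was lower in later bins over the whole range, with 573 CPM in bin 1, 405 CPM in bin 10 and 190 CPM in bin 20. NEAT1 held 2368 CPM in bin 1 and 2603 CPM in bin 10, and had 990 CPM in bin 19 and 1044 CPM in bin 20. By Pearson correlation over the 20 bins, the non-cycle genes most like the score were ARHGAP11A (r = 0.997), KNSTRN (0.996), GAS2L3 (0.996), SMTN (0.995), NDE1 (0.993), UBALD2 (0.991), KIAA0586 (0.990), PIF1 (0.988), CDC27 (0.985) and ODF2 (0.984). The bins share 1 library and the score enters their order, so these correlations are a description.

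Applied to the other 5 lines, the same rule gave groups of 257 to 423 mitotic cells. At the same limits, 283 non-cycle genes were higher in MDA-MB-453, against 535 in BT-474, 301 in MDA-MB-231, 342 in HCC38, 288 in Hs578T and 170 in MDA-MB-436. Lower genes numbered 131 in MDA-MB-453, against 268 in BT-474, 272 in MDA-MB-231, 262 in HCC38, 161 in Hs578T and 83 in MDA-MB-436. The lowest mitotic score was 12.7 in MDA-MB-453, against 8.26 in BT-474, 22.3 in MDA-MB-231, 21.9 in HCC38 and 16.3 in Hs578T and in MDA-MB-436, so the groups are not cut at the same level. Of the 198 higher genes outside the wider list, 109 were measured in all 5 other lines, and 19 of those were at least 1.5-fold higher in each, among them UBALD2, RNF26, BRD8, ZMYM1 and CEP57L1, while 19 were so in no other line. RNF26 ran from 1.29 in MDA-MB-231 to 1.96 in HCC38, with 1.65 in MDA-MB-453. Of the 126 lower genes 41 were measured in all 5 lines, none was at least 1.5-fold lower in each, and 24 were so in none. NEAT1 came nearest, with log2 ratios of -1.27 in BT-474, -0.92 in MDA-MB-231, -1.29 in HCC38, -1.0 in Hs578T and -0.58 in MDA-MB-436. KRT7 stood at -0.99 in MDA-MB-453, -0.64 in MDA-MB-231, -0.53 in HCC38 and between -0.08 and -0.21 in the other 3. The heat shock list had medians of 0.23 to 0.48 in the other lines. These lines are single cultures as well, and differences between lines were not tested. The share of all measured genes past 1.5-fold in every other line, or in none, was not computed. The counts of shared and unshared genes above therefore have no background beside them.

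**Figure D5:**
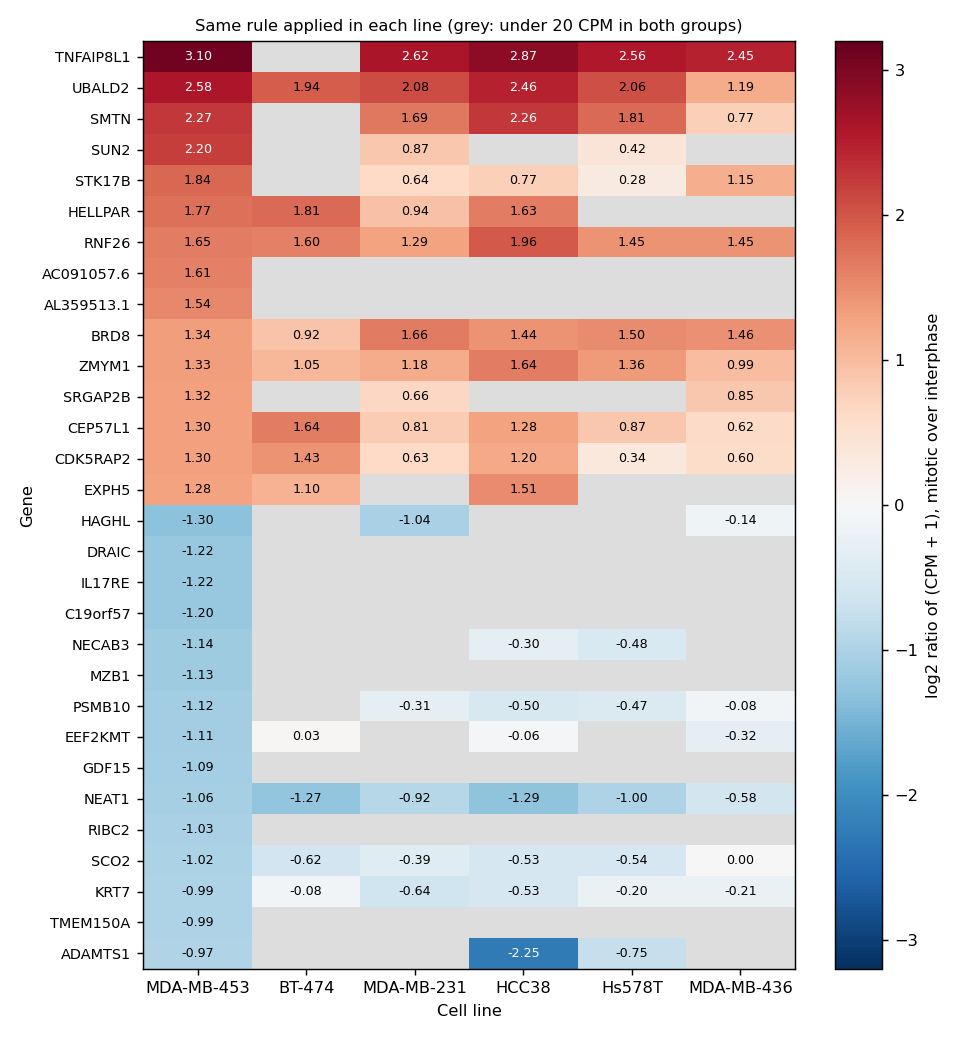
Log2 ratio of (CPM + 1), mitotic over interphase, in MDA-MB-453 (left column) and the other 5 lines under the same rule, for the 15 highest and 15 lowest genes outside the wider cycle list (grey, under 20 CPM in both groups). RNF26, BRD8 and ZMYM1 are positive in all 6 lines and NEAT1 is negative in all 6, whereas KRT7 runs from -0.99 in MDA-MB-453 to -0.08 in BT-474.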

How the data were processed

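A droplet 3′ gene expression library and its multiplexing-oligo library were read from 1 matrix of raw UMI counts, 36601 genes and 12 oligos by 17605 barcodes, deposited by the authors. Cell Ranger 6.1.2 wrote it, per the file headers. The submitters' processing notes name the build GRCh38 (hg38), and no label states how cells were called or the captures joined. Counts were summed over the cells of each group and scaled to 1000000 (CPM), with a pseudocount of 1 CPM for log2 ratios and a minimum of 20 CPM in either group. Intervals at 95% were exact Poisson for levels and exact conditional binomial for ratios. Cells are not replicates, and no test was run. Doublets were not removed; leaving out likely ones was an alternative.

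Members and gene lists were chosen with earlier results of these data known, and the wider cycle list after the values were seen. Genes named are the 6 score genes, the 15 highest and 15 lowest ratios among measured non-cycle genes, the 2 highest and 2 lowest of each list (10 highest for the 2 mitotic lists) and the 10 most like the score over 20 bins. The 15 highest and lowest outside the wider list, the remaining members past 1.5-fold of some lists, and genes of the closing section were added after their values were seen. Some genes that the rule names are not reported here. Gene positions and overlaps came from a GENCODE annotation of GRCh38 and promoter windows from RefSeq (GRCh38.p14). TMM factors came from edgeR 4.0.16 in R 4.3.3; all else was computed in Python 3.11.15 with scipy 1.17.1, pandas 2.3.3 and numpy 2.4.6. Scripts were tested on simulated data.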

Additional observations from a re-analysis of the deposited data

How the results depend on the processing

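Gene counts are listed first where they were more than 1.5 times apart from the main ones. Against 283 higher and 131 lower non-cycle genes, the higher count was 157 at a minimum of 50 CPM, 544 with no minimum, 744 at a lower fold limit, 109 at 2-fold and 1283 in UMIs per cell. The lower count was 217 with at least 20000 UMIs per cell, 206 with at most 10% mitochondrial UMIs, 248 with the highest 5% as mitotic, 337 at a minimum of 5 CPM, 56 at 50 CPM, 572 with none, 604 at the lower fold limit, 15 at 2-fold, 18 in UMIs per cell and 207 against interphase cells of high G1/S level. Smaller changes also occurred. The higher count was 413 with the highest 5% as mitotic, 409 at a minimum of 5 CPM and 389 against interphase cells of low G1/S level. With a pseudocount of 5 CPM the counts were 240 higher and 93 lower. The UMI ratio of 1.36 was 1.20 with at least 20000 UMIs, 1.48 with the highest 5%, 1.48 with the lowest 25% as interphase, 1.01 after matching on UMIs (by construction), and 1.49 and 1.24 against interphase cells of low and high G1/S level. The median of the mitotic lists, 2.38, was 2.78 with the highest 5%, 2.78 with the lowest 25%, 2.19 with a score of CCNB1, CDC20 and PLK1, 2.71 in UMIs per cell, and 3.09 and 1.97 against low and high G1/S level. HIST1H4C turned to -0.37 with at least 20000 UMIs and to -0.56 with the highest 5%, HIST1H3B to -0.15 with at least 20000 UMIs, and FAM111B to 0.93 and RIBC2 to 0.69 against interphase cells of low G1/S level. The cause was not tested, apart from the changes that fewer genes or another fold bring by construction. The comparisons by G1/S level and the wider cycle list were chosen after seeing the data. Of 111 named genes past 1.5-fold, 107 passed it the same way against 508 interphase cells matched on UMIs (median 24572 UMIs, with 276 higher and 158 lower non-cycle genes), 106 with every cell thinned to 10000 UMIs, 111 without likely doublets and 101 in UMIs per cell. The 111 include the score genes, which define the groups, and genes named for extreme ratios in these same cells. That most kept their direction therefore follows largely from the choice and is no independent check. No paired analysis was possible because each group is 1 set of cells of 1 culture. Counting depth limits genes near 20 CPM, and with 1 culture nothing shows how the values vary between cultures.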

Other observations

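Among the 198 genes outside the wider cycle list that were higher in mitotic cells, a few were abundant, and their absolute change was large although their fold was not. They were picked after their values were seen, from among the more abundant ones and not by a fixed rule. JPT1, a small microtubule-associated protein, had 2930 CPM in mitotic and 1632 CPM in interphase cells (log2 ratio 0.84). NUCKS1, a chromatin protein, had 2340 CPM in mitotic and 1262 CPM in interphase cells (0.89). DYNLL1, a dynein light chain, had 1822 CPM in mitotic and 1138 CPM in interphase cells (0.68), and CALM2, 1 of the calmodulin genes, had 1678 CPM in mitotic and 900 CPM in interphase cells (0.90). HNRNPA3, an RNA-binding protein, had 1066 CPM in mitotic and 630 CPM in interphase cells (0.76). SFPQ, a paraspeckle protein that binds NEAT1, had 498 CPM in mitotic and 241 CPM in interphase cells (1.04), so it stood higher in the cells in which NEAT1 stood lower. HP1BP3, a linker histone-like chromatin protein, had 327 CPM in mitotic and 150 CPM in interphase cells (1.12).

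PEG10, an imprinted gene of retrotransposon origin, was the most abundant gene past 1.5-fold in the lower direction outside the wider list. PEG10 had 2488 CPM in mitotic and 4445 CPM in interphase cells (log2 ratio -0.84), and a ratio of 0.719 in UMIs per cell. In the other 5 lines PEG10 was at 53.9 to 159 CPM in interphase cells, and its log2 ratio lay between -0.31 in HCC38 and 0.25 in MDA-MB-231. CRACR2B, which regulates store-operated calcium entry, had 463 CPM in mitotic and 760 CPM in interphase cells (-0.71). SLC40A1, the iron exporter ferroportin, had 143 CPM in mitotic and 249 CPM in interphase cells (-0.80).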
